A study of Mus musculus with 319 samples.

Results

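Mmp12 encodes macrophage elastase, a secreted metalloprotease, and is described here across 319 arrays of mouse muscle RNA. It is 1 of 11555 named genes with a tested probe, and it is read by 1 probe of the 23382 on the array. The probe was chosen with its values known, and so were the genes set beside it. Those were the genes selected on their correlation with Mmp12, highest and lowest, and the 20 other genes whose symbol begins with Mmp. The correlations were taken over 263 arrays on which the B cell receptor gene Cd79b had a log2 ratio to the pool at or below -0.50. These are called the Cd79b-low arrays. The other 56, called the Cd79b-high arrays, did not enter that choice and were used for tests. The limit lies in an empty interval, since the nearest arrays had Cd79b at -0.85 and -0.15. Cd79b had a median of -2.29 on the low side and 1.25 on the high side. Medians of Cd22, Cd2, Cxcl13 and Ms4a1, from a list of B and T cell genes, were -4.02, -2.61, -2.89 and -1.40 on the low side. On the high side they were 1.38, 1.35, 1.315 and 0.93. The tests therefore come from arrays richer in these lymphoid transcripts than the arrays that chose the genes.

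The animals were F2 mice of both sexes from C57BL/6J and C3H/HeJ parents, all without functional ApoE, the apolipoprotein that clears remnant lipoproteins, and all given a fat-rich Western diet between 8 and 24 weeks of age. No animal with intact ApoE or on another diet was measured, so all arrays form 1 group, and nothing here separates genotype or diet from the rest. The RNA of each animal was labelled with Cy3 and hybridised against a pool of equal RNA portions of all samples, labelled with Cy5. The series design gives 319 mice and the sample descriptions give 330. Sex is not labelled per animal beyond 1 case, and no batch is given.

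Macrophage elastase cleaves elastin and a range of other matrix and non-matrix proteins. It is made mainly by macrophages, among them the lipid-filled macrophages of atherosclerotic plaques, and mice without ApoE are a standard model of such plaques. Its gene lies in a cluster of Mmp genes on chromosome 9. Skeletal muscle fibres are not a known main source, and the macrophages of a muscle sample lie between fibres, in its fat and along its vessels.

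A ratio compares 1 transcript between an animal and the pool and gives no level, so neither the muscle identity of a sample nor the level of Mmp12 against another gene could be read from it. Positive values mean that the transcript was more abundant in the animal, and negative values that the pool held more of it. That direction was read from Eif2s3y, a Y-linked gene, which had a median of -5.62 on 164 arrays and 1.08 on 155, with nothing between -3.71 and -0.79. An array of the reverse direction would put a mouse without a Y chromosome far above 0, and the highest value was 1.49. The SD over probes on an array ranged from 0.213 to 1.08, and 10 arrays had an outlying SD. Over 50721 pairs of arrays the correlation ran from -0.601 to 0.848, and 3735 pairs lay under -0.3. These arrays come from whole tissue, so fewer cells of a type and less RNA per cell cannot be told apart. Every test below measures the spread between arrays, each taken as 1 animal. All points of a correlation share the pool RNA.

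The letters before the gene start are shown for Mmp12, for its chromosome 9 neighbours Mmp3 and Mmp13, whose ratios went with it on the Cd79b-high arrays, and for Itgax and Trem2, whose ratios followed it most closely on the Cd79b-low arrays. Each is the 250 bases before a start site in RefSeq, build GRCm38.p6, read 5′ to 3′ on the plus strand. Capitals mark TGANTCA, where N is any base. The pattern takes in the site of AP-1 factors, transcription factors of the Fos and Jun families, which has C or G in the middle. The middle letter is A in Trem2 and C or G in the other genes shown.
Mmp12, chr9:7347124-7347373: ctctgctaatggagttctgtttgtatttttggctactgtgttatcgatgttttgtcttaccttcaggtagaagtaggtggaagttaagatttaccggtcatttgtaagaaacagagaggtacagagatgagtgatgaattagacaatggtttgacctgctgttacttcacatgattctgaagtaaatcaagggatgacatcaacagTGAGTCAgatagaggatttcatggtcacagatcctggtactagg
Mmp3, chr9:7445572-7445821: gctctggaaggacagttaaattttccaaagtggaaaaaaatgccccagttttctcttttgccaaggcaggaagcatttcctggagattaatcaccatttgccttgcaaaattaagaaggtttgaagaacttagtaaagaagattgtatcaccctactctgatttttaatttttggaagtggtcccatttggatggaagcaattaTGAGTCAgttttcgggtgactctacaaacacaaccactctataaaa
Mmp13, chr9:7272264-7272513: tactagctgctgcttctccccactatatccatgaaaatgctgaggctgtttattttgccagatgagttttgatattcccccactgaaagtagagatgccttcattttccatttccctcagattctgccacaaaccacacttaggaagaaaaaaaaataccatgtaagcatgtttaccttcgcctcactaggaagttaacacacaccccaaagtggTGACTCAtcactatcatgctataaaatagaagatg
Itgax, chr7:128129300-128129549: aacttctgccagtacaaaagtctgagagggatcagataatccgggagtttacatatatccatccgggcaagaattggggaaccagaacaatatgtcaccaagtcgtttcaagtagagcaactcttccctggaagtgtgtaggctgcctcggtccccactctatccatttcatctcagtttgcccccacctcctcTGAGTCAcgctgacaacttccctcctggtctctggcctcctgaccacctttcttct
Trem2, chr17:48346151-48346400: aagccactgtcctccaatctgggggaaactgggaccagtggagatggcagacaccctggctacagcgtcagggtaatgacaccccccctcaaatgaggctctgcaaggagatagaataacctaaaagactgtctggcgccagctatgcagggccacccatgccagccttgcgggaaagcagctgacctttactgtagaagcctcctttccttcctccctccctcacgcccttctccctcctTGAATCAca

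The capitals begin 44 bases before the start in Mmp12, 46 in Mmp3, 35 in Mmp13, 56 in Itgax and 9 in Trem2. RefSeq lists another start for Mmp12, and the window before it, chr9:7344147-7344396, does not hold these letters. Neither do the windows of Gpnmb and Adam8, which also followed Mmp12. Both strands were searched. Of 27025 mouse genes with a listed promoter, 7.82% hold the letters in at least 1 window. They were found in 8 of 16 Mmp genes with a listed promoter, which were Mmp12, Mmp1a, Mmp1b, Mmp3, Mmp7, Mmp10, Mmp13 and Mmp20. Of the 20 genes most like Mmp12, 15 have a listed promoter, and 3 hold the letters (Itgax, Trem2 and Cd84). GAGGAA, a core bound by the myeloid factor PU.1, was in 25.9% of all genes, in 4 of those 15 and in 4 of the 16 Mmp genes. CACGTG, an E-box, was in 6.86% of all genes and in 1 of each set. Overlaps between matches of different motifs were not counted. The motifs were chosen after the sequences were seen, and a match is a description of letters only.

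Mmp12 varied over a wide range. Its log2 ratio ran from -5.34 to 2.48, with quartiles at -2.90, -1.47 and -0.01, an SD of 1.88 and no missing value. The 5th and 95th percentiles lay 57.3-fold apart. No value reached the ends of the deposited scale, which are 100-fold below and above the pool. The SD ranked 49 of 23190 tested probes, against a median SD of 0.227 and a 95th percentile of 0.694. Among named probes without a value at either end of the scale it ranked 6. Only 78 arrays, 24.5%, lay above the pool, and the median array held less Mmp12 RNA than the pool of all animals.

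The Cd79b-low arrays covered most of that range. Their lowest, median and highest log2 ratios of Mmp12 were -5.34, -2.10 and 1.91, with an SD of 1.66 (n = 263). On the Cd79b-high arrays they were -3.05, 0.99 and 2.48, with an SD of 1.20 (n = 56). The sides overlapped, and the high side lay mostly above the pool, with 39 of 56 arrays (69.6%) against 39 of 263 (14.8%). Below -3 there were 76 low arrays and 1 high array. Inside the 5th to 95th percentiles of the low side the largest gap between neighbouring arrays was 0.13, so no separate clusters were seen there. The side is set by Cd79b, which is not a group of the study, so the difference between sides is given without a test.

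**Figure D1:**
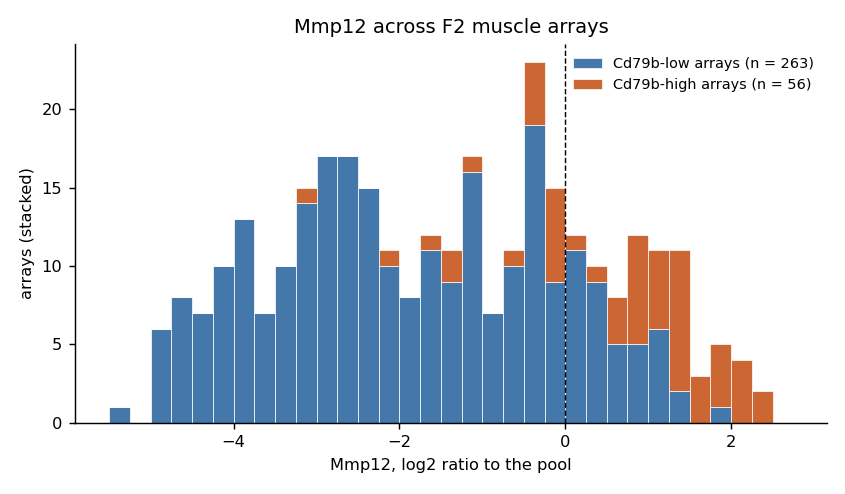
Stacked histogram of the log2 ratio of Mmp12 to the pool (x axis) against the number of arrays (y axis), with the 263 Cd79b-low arrays in blue and the 56 Cd79b-high arrays in orange. The dashed line marks equality with the pool. The blue arrays spread from -5.34 to 1.91 without a break in their middle, and most orange arrays lie right of the line.

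On the Cd79b-low arrays, Mmp12 was followed most closely by Itgax, Trem2, Ubd, Adam8 and F7. Over all tested probes, 1.01% had r over 0.5 with Mmp12 there, and 0.0345% had r under -0.5. The highest r was that of Itgax, the integrin CD11c of dendritic cells and of some macrophages, with r = 0.893. Trem2, a lipid-sensing receptor of macrophages, had r = 0.875, and Ubd, a ubiquitin-like modifier induced in inflammation, had r = 0.841. Next came Adam8, a membrane metalloprotease of myeloid cells (r = 0.832), and F7, coagulation factor VII (r = 0.821). Ctss, the lysosomal protease cathepsin S, which also cleaves elastin, had r = 0.792. These values are what chose the genes, and no test is made of them.

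The other 14 of the 20 highest ran down from 0.784 to 0.673. Receptors and adhesion proteins of leukocytes among them were Itgad (0.780), an integrin of macrophages, Slamf8 (0.715), Cd200r1 (0.709), an inhibitory receptor, Cd84 (0.703) and Clec7a (0.673), a receptor for fungal glucans. Mpeg1, a pore-forming protein of macrophages, had r = 0.708, and Rgs1, a regulator of G protein signals in leukocytes, 0.767. Plin2, the coat protein of lipid droplets, had r = 0.744. Gpnmb, a glycoprotein of lysosome-rich macrophages, had r = 0.717. Acute-phase and iron genes were Hp, which encodes haptoglobin (0.784), Serpina3n, a protease inhibitor (0.735), and Tfr2, a transferrin receptor (0.778). Kcnj14, a potassium channel (0.725), and Apobec1, the enzyme that edits apolipoprotein B mRNA (0.699), completed the set. The first gene outside it was Clec4d, with r = 0.663.

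Opposite relations were weaker. The lowest r was -0.602, of Rab3ip, an exchange factor in vesicle traffic. It was followed by Gcat, an enzyme of threonine breakdown (-0.572), Alppl2, an alkaline phosphatase (-0.543), Asic3, an acid-sensing channel (-0.525), Aebp1 (-0.505), Lsm6, of the RNA-binding Lsm ring (-0.495), Dnph1 (-0.492), the neurotrophin Bdnf (-0.489), Sel1l3 (-0.484) and Olig2, a factor of glial cells (-0.479). The next gene outside had r = -0.477. Several of the genes named so far have another probe, and these did not all behave alike. The other probe of Ctss had r = -0.0284 and that of Serpina3n 0.0062, whereas that of Lsm6 had -0.453.

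Single animals at the ends of the range give the values of 4 of these genes together. Animal 14 had the lowest Mmp12 of all, -5.34, and log2 ratios of -2.79 for Itgax, -2.26 for Trem2, -2.02 for Gpnmb and -1.99 for Adam8. Animal 104 had the highest Mmp12 among Cd79b-low arrays, 1.91, with 1.45 for Itgax, 2.07 for Trem2, 1.85 for Gpnmb and 1.74 for Adam8. Animal 347, on the Cd79b-high side, had the highest Mmp12 of the series, 2.48, with 1.60, 1.11, 2.62 and 0.86 for the same genes in that order. In these 3 animals the 4 genes lay on the same side of the pool as Mmp12, but animals 14 and 104 are on arrays that chose the genes, and the pattern did not hold at every end. Animal 4, with the lowest Mmp12 of the Cd79b-high side at -3.05, had Adam8 at 0.06. Animal 109, among the 4 highest of the Cd79b-low side with Mmp12 at 1.25, had Gpnmb at -0.12. Animal 112, described with the tests, had Mmp12 at -2.17 and Itgax at 3.01.

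The relation was then tested on the 56 Cd79b-high arrays, which the choice had not used. There limma, fitted over all probes on the Mmp12 ratio with Benjamini-Hochberg adjustment at 0.05, called 279 probes (1.2%) rising and 112 (0.483%) falling with Mmp12, 391 in all (1.69%). Without the 2 arrays of most extreme Mmp12, 234 rose and 43 fell, with 159 of the calls shared. These 2 arrays, here and below, are those of animals 4 and 112, both at the low end of Mmp12. Leaving out animal 112 alone, as below, is therefore not a separate check. With array medians subtracted, 85.8% of the calls were rising, against 71.4% as deposited, and with the first principal component removed 55.8% were. Of the 20 most like genes, 13 rose with Mmp12, and all 20 had a positive r, with a median of 0.504. Of the 10 least like genes, 3 fell, which were Rab3ip, Alppl2 and Sel1l3, and all 10 had a negative r. With 8 bins of animal number as a covariate, 1281 probes were called, and 16 of the 20 and 4 of the 10 were among the calls. The bins of numbers 152 to 315 hold only 3 Cd79b-high arrays each, which limits that setting.

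Gpnmb had lowest, median and highest log2 ratios of -2.55, -0.94 and 1.85 on 242 Cd79b-low arrays and of -1.78, 0.83 and 3.01 on 55 Cd79b-high arrays. The sides overlapped widely, and the top of the range was held by Cd79b-high arrays. Its slope on the high side was 0.73 ± 0.070 (SE) log2 units per log2 unit of Mmp12 (limma adjusted p = 2.86e-10; r = 0.812). Trem2 had -2.26, -0.71 and 2.07 on the low side (n = 263) and -1.74, 0.39 and 2.81 on the high side (n = 56), with the medians on opposite sides of the pool. Its slope was 0.58 ± 0.065 (limma adjusted p = 8.47e-09; r = 0.767). Adam8 had -2.06, -0.98 and 1.74 on the low side and -0.60, 0.71 and 1.77 on the high side, nearly the same highest value on both. The slope of Adam8 was 0.37 ± 0.041 (limma adjusted p = 8.47e-09; r = 0.773).

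F7 had a narrower range, from -0.90 over a median of -0.21 to 1.08 on the low side and from -0.51 over 0.33 to 1.39 on the high side, again overlapping. It rose with Mmp12 by 0.27 ± 0.030 (limma adjusted p = 8.47e-09; r = 0.770). Factor VII starts coagulation once tissue factor is exposed, and is known best as a plasma protein made in liver. F10, coagulation factor X, which was picked after its value was seen, also rose, by 0.33 ± 0.040 (limma adjusted p = 7.85e-08). Clec7a rose by 0.54 ± 0.063 (limma adjusted p = 2.52e-08; r = 0.753) and Slamf8 by 0.38 ± 0.047 (limma adjusted p = 2.03e-07; r = 0.728). Clec7a had -3.40, -1.60 and 0.48 on the low side and -2.08, 0.96 and 2.75 on the high side. Slamf8 had -2.56, -1.46 and 0.54 against -0.92, 1.07 and 2.28. For both genes the median of the high side lay above the highest array of the low side.

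Itgax, closest to Mmp12 on the low side, was not closest on the high side. It had -2.79, -1.38 and 1.45 on the low side (n = 263) and -0.73, 0.86 and 3.01 on the high side (n = 56), so the lower part of the range was held by Cd79b-low arrays. Its slope was 0.41 ± 0.070 (limma adjusted p = 2.23e-04), with r = 0.609. Ctss rose by 0.33 ± 0.054 (limma adjusted p = 1.06e-04; r = 0.626). An array bears on both. Animal 112 had Mmp12 at -2.17, rank 55 of the 56 from the highest, and yet the highest Itgax (3.01), Itgad (2.96), Rgs1 (3.26) and Cd200r1 (2.39) of them, beside the lowest Trem2 (-1.74). It also had Cd22, a B cell receptor, at 2.34, and Marco, a receptor of macrophages in the marginal zone of the spleen, at -0.14 against a median of 1.37, whereas Spic, a factor of red pulp macrophages, was at 1.80 against a median of 0.93. The part of these other transcripts in its values was not tested. Without animal 112, r was 0.821 for Itgax, 0.800 for Ctss, 0.615 instead of 0.327 for Rgs1, 0.663 instead of 0.358 for Cd200r1 and 0.735 instead of 0.498 for Mpeg1. The number called was then 640 instead of 391, with 309 shared, and 15 of the 20 genes were called. That array was singled out after the data were seen.

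Plin2 (limma adjusted p = 0.00848) and Ubd (0.0085) rose, and so did Mpeg1 (0.0112), Cd84 (0.0288) and Hp (0.0383). Hp was not called without animal 112 (limma adjusted p = 0.0901), and without the 2 arrays of most extreme Mmp12 neither Hp (0.114) nor Plin2 (0.103) was. Not called were Kcnj14 (0.0632), Tfr2 (0.0792), Serpina3n (0.0939), Cd200r1 (0.127), Apobec1 (0.187), Rgs1 (0.189) and Itgad (0.516). Itgad had r = 0.218 on the high side, against 0.780 on the low side, and 0.367 without animal 112, where Kcnj14 (0.310) and Tfr2 (0.335) were weaker. Permutation tests of Pearson's r over the same arrays, with 100000 resamples, 2-sided and adjusted over 142 named relations, called 19 of the 20 and 8 of the 10. The smallest permutation p was 1e-05, the smallest they can give, and Itgax and Trem2 were among the genes that reached it with both r and rho. Whether r differs between the sides was not tested for any gene.

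**Figure D2:**
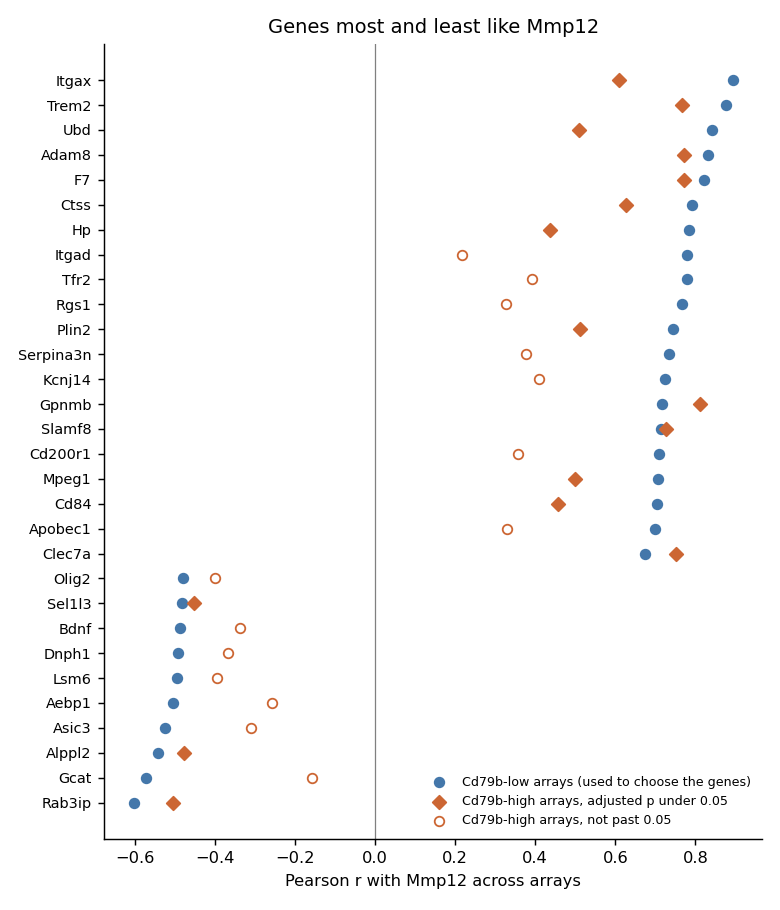
Pearson r with Mmp12 (x axis) for the 20 genes of highest and the 10 of lowest r (y axis), with blue circles for the 263 Cd79b-low arrays that chose them and orange diamonds for the 56 Cd79b-high arrays. Filled diamonds passed an adjusted p of 0.05 in limma and open orange circles did not. All orange marks lie on the same side of 0 as the blue ones, and Itgad and Gcat lie nearest to 0.

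**Figure D3:**
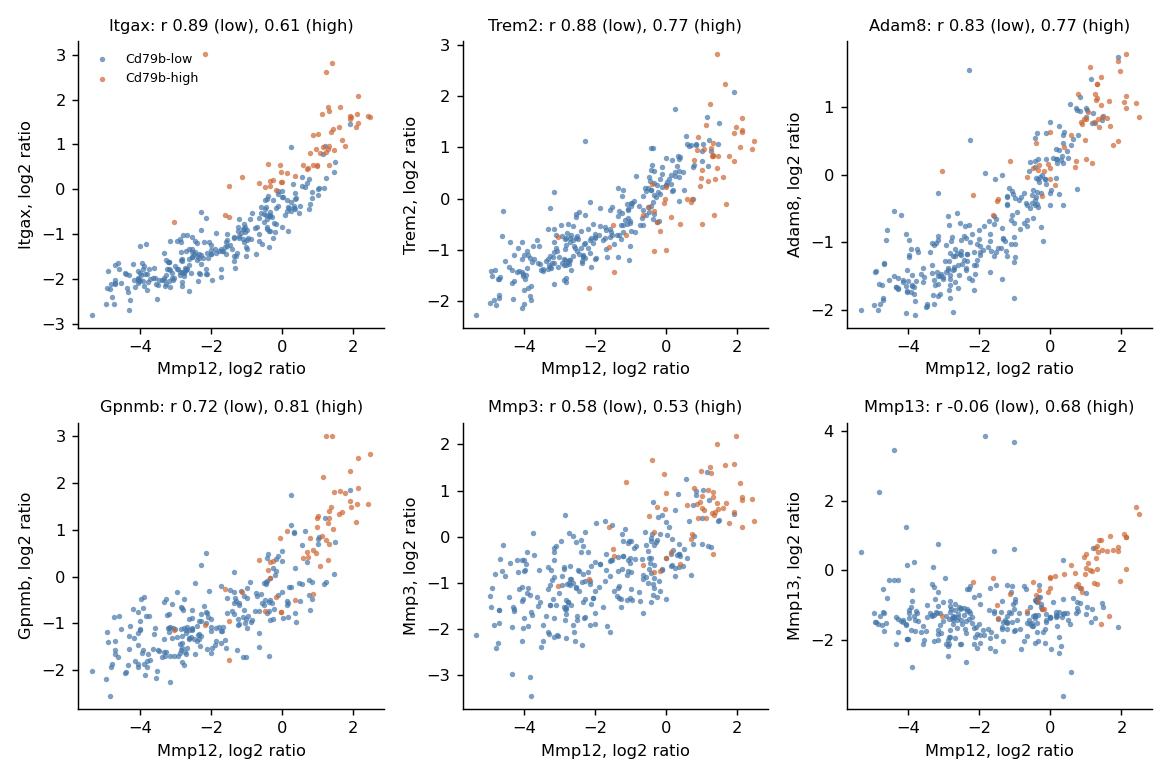
Log2 ratio of 6 genes (y axes) against that of Mmp12 (x axes), 1 point an array, with Cd79b-low arrays in blue and Cd79b-high arrays in orange. Itgax, Trem2 and Adam8 rise along both colours, and the orange point at top left of the Itgax panel is animal 112. Mmp13 is flat in blue (r = -0.06) and rises in orange (r = 0.681).

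A score of 17 macrophage markers moved with Mmp12 on both sides. Its r with Mmp12 was 0.597 on the Cd79b-low arrays, given as a description, and 0.520 on the Cd79b-high arrays (permutation p = 4e-05), with rho = 0.541 (permutation p = 4e-05). Leaving out the 2 arrays whose Mmp12 was most distant from its median gave r = 0.590. The score holds Mpeg1, 1 of the 20 most like genes. The marker list it was drawn from also names Ptprc and Laptm5, which are not confined to macrophages. Of the 17 markers, 7 rose with Mmp12 on the Cd79b-high arrays, where 1.2% of all probes rose. Without animal 112, 11 of them rose, beside 1.92% of all probes. Tyrobp, the signalling adaptor of Trem2, rose by 0.21 ± 0.041 (limma adjusted p = 0.00168) and Fcgr3, an antibody receptor, by 0.29 ± 0.051 (limma adjusted p = 2.95e-04). Adgre1, which encodes the F4/80 antigen, had a slope of 0.17 ± 0.073 (limma adjusted p = 0.281).

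At equal macrophage score, with the score as a covariate in limma, 64 probes (0.276%) rose with Mmp12 and 38 (0.164%) fell, 102 in all (0.44%). That balance turned in other settings. Without animal 112, 19 rose and 24 fell, without the 2 arrays of most extreme Mmp12, 32 rose and 67 fell, with 24 of the 102 shared, and with bins of animal number 250 rose and 282 fell. Among the 20 most like genes, 7 rose there, which were Gpnmb (adjusted p = 3.15e-07), Trem2 (4.07e-05), Adam8 (5.89e-05), F7 (6.36e-05), Clec7a (2.53e-04), Slamf8 (3.07e-04) and Kcnj14 (0.0479). Kcnj14 was lost without animal 112, without the 2 arrays of most extreme Mmp12 and after quantile normalisation. Itgax was not called (adjusted p = 0.143). It was called without those 2 arrays (adjusted p = 1.03e-04), without animal 112 alone (2.47e-04) and after quantile normalisation (2.19e-04). Without animal 112 the probes called numbered 43 instead of 102, with 20 shared, and 8 of the 20 genes were among them. Gpnmb, Trem2, Adam8, F7, Clec7a and Slamf8 were called there too, and also without the 2 arrays, which include that of animal 112.

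On the Cd79b-low arrays, the 10 genes of highest partial r with Mmp12 at equal macrophage score were the same as the first 10 by plain r, from 0.833 for Itgax down to 0.638. The 5 lowest included 3 mast cell proteases, Cpa3 (-0.469), Mcpt4 (-0.457) and Cma1 (-0.431), beside Gas6 (-0.437), a ligand of macrophage receptors for dying cells, and Bnc2 (-0.426). The proteases went with the score itself, with r of 0.498 for Cpa3, 0.397 for Mcpt4 and 0.437 for Cma1. Their plain r with Mmp12 on these arrays was only -0.029 for Cpa3, -0.100 for Mcpt4 and -0.051 for Cma1. For Gas6 and Bnc2 plain r was -0.294 and -0.368. On the Cd79b-high arrays limma called none of the 5, at equal score or without it.

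Among the metalloproteases, Mmp12 stood apart in its spread, and Mmp3 and Mmp13 went with it on the Cd79b-high arrays. The other 20 genes had SDs from 0.115 to 0.948 against 1.88 for Mmp12, each by 1 probe. Mmp3, stromelysin, which cleaves many matrix proteins and activates other pro-enzymes, had log2 ratios of -3.45, -0.83 and 1.41 on the Cd79b-low arrays and of -1.07, 0.61 and 2.19 on the Cd79b-high arrays, overlapping over most of the upper range. Its r with Mmp12 was 0.584 on the low side and 0.533 on the high side, where it rose by 0.33 ± 0.069 (limma adjusted p = 0.00467). That call was lost without the 2 arrays of most extreme Mmp12 (adjusted p = 0.0864).

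Mmp13, the collagenase that cuts fibrillar collagen in mice, had -3.62, -1.34 and 3.88 on the low side and -1.56, -0.10 and 1.81 on the high side, so the extremes in both directions were Cd79b-low arrays. Its r with Mmp12 was -0.06 on the low side and 0.681 on the high side, with rho = 0.732 there. On the high side it rose by 0.43 ± 0.062 (limma adjusted p = 5.03e-06), also at equal macrophage score (0.00111). The difference in r between the sides was not tested.

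None of the other 18 was called by limma. Mmp2, the gelatinase of stromal cells, had r = 0.342 on the Cd79b-high arrays (limma adjusted p = 0.158), and Mmp14, the membrane-bound protease that activates it, had r = 0.320 (limma adjusted p = 0.211). With 8 bins of animal number as a covariate Mmp2 was called as well (limma adjusted p = 0.0353). In the permutation family, r passed 0.05 after adjustment for both (0.031 for Mmp2 and 0.0372 for Mmp14), and rho for Mmp14 (0.0382) but not for Mmp2 (0.324). The r of Mmp2 was 0.191 without animal 112 and 0.141 without the 2 arrays of most extreme Mmp12. On the low side, Mmp14 had r = 0.238, Mmp2 0.178 and Mmp11 0.288. The gelatinase Mmp9 and the collagenase Mmp8, both stored in neutrophil granules, had r of -0.0974 and -0.207 on the low side and of 0.0633 and -0.0311 on the high side. Mmp8 and Mmp9 had narrow ranges, with SDs of 0.141 and 0.267.

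**Figure D4:**
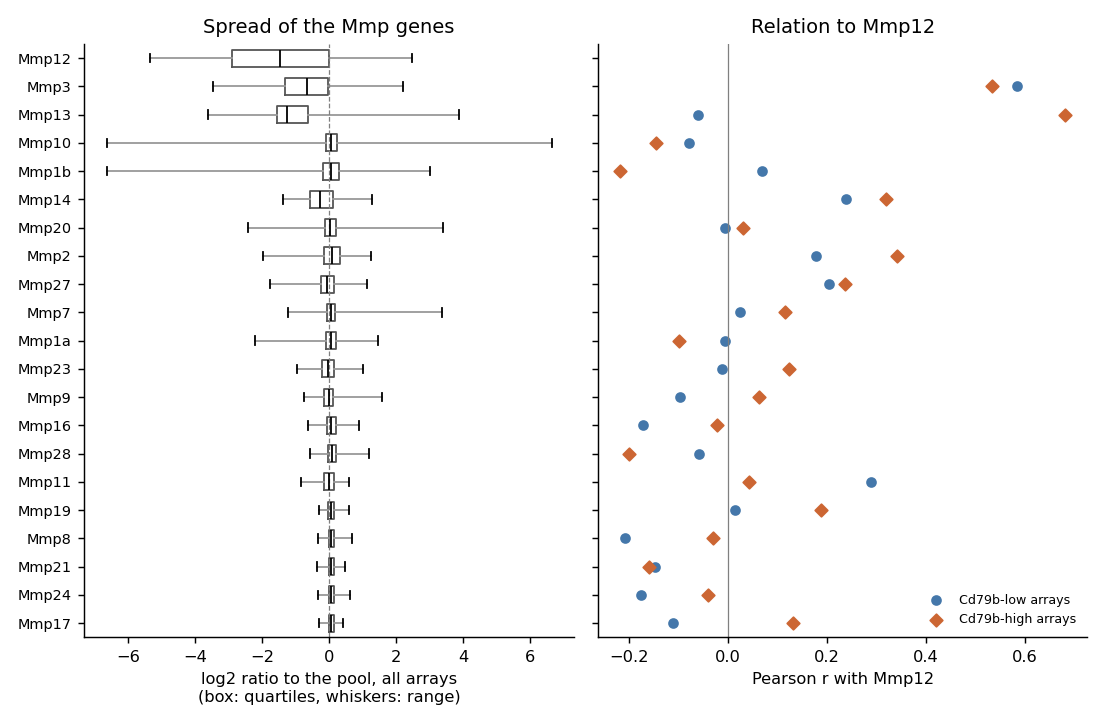
Left, log2 ratio to the pool over all 319 arrays for Mmp12 and 20 other Mmp genes (boxes are quartiles, whiskers the range, the dashed line equality with the pool). Right, Pearson r of each with Mmp12 on Cd79b-low (blue circles) and Cd79b-high (orange diamonds) arrays. Mmp12 has the widest box, and Mmp3 is the gene far right in both colours. The long whiskers of Mmp10 end at the limits of the deposited scale (-6.64 and 6.64). Mmp1b reaches only the lower limit, and its highest value is 3.02.

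Genes near Mmp12 in the cluster differed in their relation to it. On the high side limma called Mmp13 and Mmp3, which lie 1 place before and 2 places after it, and no other Mmp gene. A relation to position was not tested. In RefSeq gene order on chromosome 9, Mmp13 lies 1 place before Mmp12, and Mmp1b, Mmp3, Mmp1a, Mmp10, Mmp8, Mmp27, Mmp20 and Mmp7 follow it. Mmp1b, the next gene, had r = 0.0685 on the low side and -0.218 on the high side. Mmp1a and Mmp10, on the far side of Mmp3, had r of -0.00703 and -0.0792 on the low side. Farther off, 6 to 8 places before Mmp12, lie the inflammatory caspases, and on the low side Casp12 had r = 0.362, Casp4 0.395 and Casp1 0.328. None of the caspases was called on the high side (limma adjusted p = 0.774, 0.320 and 0.395).

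Lists of genes give the wider setting, with 1.2% of all probes rising and 0.483% falling with Mmp12 on the Cd79b-high arrays, and a median r of -0.0461 over all probes on the low side. Of 15 probes for genes of lipid-laden macrophages, 7 rose, 5 of them at equal macrophage score too, and the list's median r on the low side was 0.507. The 7 include a pair of probes of Fabp5. They also include Trem2, Gpnmb and Plin2, which are already among the 20 most like genes. Clec4d, a C-type lectin of myeloid cells, rose by 0.31 ± 0.040 (limma adjusted p = 5.84e-07). Of 12 probes for other elastases and matrix cathepsins, 4 rose. Among them Ctsk, cathepsin K, a collagen- and elastin-cleaving protease of osteoclasts, rose by 0.30 ± 0.039 (limma adjusted p = 4.34e-07; at equal macrophage score 1.75e-04). Ctsz, cathepsin Z, rose by 0.23 ± 0.053 (limma adjusted p = 0.0117). Elane, the neutrophil elastase, had r = -0.210 on the low side and a slope of -0.0010 ± 0.016 (limma adjusted p = 0.996).

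Of 14 inflammatory genes, 5 rose, and 3 of these were the chemokines Ccl2 (limma adjusted p = 8.9e-05), Ccl7 (0.0017) and Ccl3 (0.00867), which draw monocytes. Ccl7 was not called without the 2 arrays of most extreme Mmp12 (limma adjusted p = 0.0523). Of 12 probes for alternatively activated macrophages, 1 rose, that of Folr2, a folate receptor (limma adjusted p = 0.0246). Without animal 112, 2 of the 12 rose, and Folr2 was not called (limma adjusted p = 0.0602). Ccl8, on the same list, had r = 0.633 on the low side and was not called (limma adjusted p = 0.0702). Of 10 known inducers of Mmp12 and their receptors, only Csf2ra, a chain of the GM-CSF receptor, rose, by 0.19 ± 0.054 (limma adjusted p = 0.0469). Il4, an inducer of Mmp12 in macrophages, had a slope of 0.01 ± 0.018 (limma adjusted p = 0.861). Of 9 osteoclast and bone genes, 2 rose, Ctsk and the acid phosphatase Acp5 (limma adjusted p = 0.00969). The bone matrix genes Dmp1 and Bglap2 had r of -0.220 and -0.189 on the low side. Of 8 probes for MHC class II and dendritic cells, 3 rose, which were Itgax, H2-Eb1 (limma adjusted p = 0.00988) and H2-Aa (0.0307). Of 16 interferon-response probes, 4 rose, and 5 without animal 112. At equal macrophage score, where 0.276% of all probes rose and 0.164% fell, 1 inflammatory probe was called falling. No probe was called rising there in the inflammatory, alternatively activated, inducer, MHC class II and interferon lists.

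Genes of the matrix that the enzyme acts on gave no call. None of 14 elastic fibre probes and none of 14 collagen and basement membrane probes was called by limma. Lox, the enzyme that cross-links elastin and collagen, had r = 0.563 on the low side and a slope of 0.16 ± 0.085 on the high side (limma adjusted p = 0.444). Sparc, a collagen-binding protein, had r = 0.533 and a slope of 0.20 ± 0.062 (limma adjusted p = 0.0687). None of 11 probes for Mmp inhibitors and the plasmin system was called, and the inhibitors Timp1 and Timp3 had slopes of 0.05 ± 0.031 and 0.07 ± 0.034. At equal macrophage score Timp3 was called (limma adjusted p = 0.043), but not without animal 112 (0.863) nor without the 2 arrays of most extreme Mmp12 (0.801).

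Markers of other cell types are given beside these values. None of 7 adipocyte, 10 neutrophil, 11 B and T cell, 5 splenic red pulp, 7 mast cell, 7 endothelial and 6 keratinocyte probes was called by limma. The adipocyte list had a median r of 0.424 on the Cd79b-low arrays, and Plin1, the lipid droplet coat of fat cells, had r = 0.506 there and limma adjusted p = 0.074 on the high side. Without animal 112, 4 neutrophil, 3 B and T cell and 2 red pulp probes rose with Mmp12, where 1.92% of all probes rose and 0.841% fell. Of the muscle lists, none of 13 slow fibre, 7 regeneration and 4 mitochondrial probes was called. Of 61 probes for 6 fast fibre and glycolysis genes, 7 fell, and they belong to 2 genes of glycolysis, with 6 of 36 probes of Gapdh and 1 of 3 probes of Aldoa. The called probe of Aldoa fell by 0.11 on the log2 scale (limma adjusted p = 0.00345), and its other probes were not called (0.158 and 0.180). That count was 16 without animal 112 and 2 with array medians subtracted. None of 13 cell cycle probes was called.

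The only label that differs between arrays is the animal number, which runs from 1 to 359. Over all arrays its r with Mmp12 was -0.00464 (permutation p = 0.935). On the Cd79b-low arrays it was 0.123 (permutation p = 0.0459, adjusted over 3 relations 0.138), with rho = 0.126 (permutation p = 0.041, adjusted 0.123). On the Cd79b-high arrays r was 0.201 (permutation p = 0.139, adjusted 0.209), with rho = 0.148 (permutation p = 0.274). None passed 0.05 after adjustment. In 8 consecutive bins of about 40 animals, the median of Mmp12 on the low side lay between -3.08, for numbers 46 to 88, and -1.10, for numbers 234 to 275. The Cd79b-high arrays were not evenly spread, with 13 in the bin up to number 45 and 17 in the next, out of 56.

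**Figure D5:**
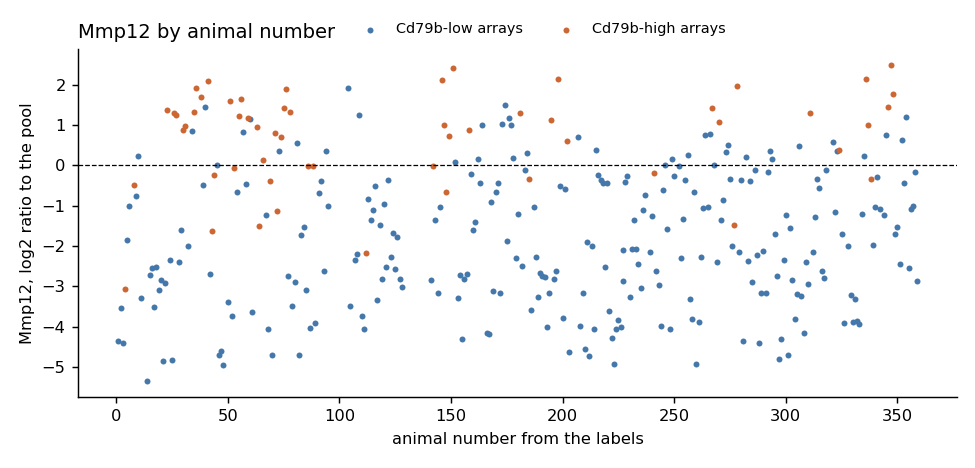
Log2 ratio of Mmp12 to the pool (y axis) by animal number from the labels (x axis), 1 point an array, with Cd79b-low arrays in blue and Cd79b-high arrays in orange. Blue points cover the range from below -4 to above 0 along most of the axis, and orange points are densest below number 88.

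Measures of the array itself moved little with Mmp12, apart from its median. On the Cd79b-low arrays r with Mmp12 was -0.407 for the array median, -0.0567 for the SD over probes and 0.0623 for the number of blanks. On the Cd79b-high arrays it was -0.106, 0.0848 and 0.189. With array medians subtracted, 273 probes had r over 0.5 in size on the low side, against 242 as deposited. Of these, 269 had a positive and 4 a negative r, against 234 and 8 as deposited. Among the 10 least like genes, the r nearest to 0 was then -0.437, against -0.479 as deposited. All 20 most like genes were shared, and their r ran from 0.677 to 0.894.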

How the data were processed

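Muscle RNA of each F2 mouse was measured against a common pool on 2-colour arrays. The authors deposited 1 log10 ratio per probe and array, which was converted to log2. Base and direction are not labelled. The base follows from values that end at exactly -2 and 2, and the direction from a Y-linked gene. Background correction, normalisation and the treatment of blanks are not given in the sources used here, and 0.654% of values were blank. Of 23382 probes, 23190 were tested, those measured on 80% of the arrays or more. The platform table gave 13639 probes 1 symbol, 48 several and 9695 none, and 12647 matched a RefSeq gene. The name of a gene was otherwise kept as given. Animal number 227 occurs on a pair of arrays, and 1 title has 399 where its source name has 339, which was used.

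For the Cd79b-high arrays, limma 3.58.1 in R 4.3.3 fitted each probe on Mmp12, alone and with a macrophage score (the mean of z-scored markers), with Benjamini-Hochberg adjustment over all probes. The fit was tested on simulated data in which probes varied independently of each other. Such data cannot show how the fit behaves where probes vary together across arrays. Single relations used permutation tests of 100000 resamples (SciPy 1.17.1). The number of arrays limits the precision. Alternatives covered centring, quantile normalisation, principal component removal, array and probe filters, animal number and the choice of arrays. Named genes were the 20 of highest and the 10 of lowest r, the 10 highest and 5 lowest partial r, all Mmp genes and up to 4 genes of each list, those of largest r in size. The members, lists and tests were chosen with earlier results of these data known.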

Additional observations from a re-analysis of the deposited data

How the results depend on the processing

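The median of Mmp12 over all arrays, and on each side of the Cd79b limit, moved by less than 1 SD between arrays under every setting run. That is a wide margin. On the Cd79b-high arrays the median went from 0.994 to 0.682 after quantile normalisation, and the SD from 1.20 to 1.49. The count of probes with r over 0.5 in size on the Cd79b-low arrays was 242, and became 89 with the first principal component removed and 1174 over all arrays. Of the 20 most like genes, 16 to 20 were shared between settings. On the Cd79b-high arrays the 391 calls became 650 without arrays of outlying SD, 640 without animal 112, 1281 with bins of animal number as a covariate and 15232 over all arrays. At equal macrophage score the 102 calls became 33 after quantile normalisation, 43 without animal 112, 242 without arrays of outlying SD, 384 with the first principal component removed, 532 with the bins and 2495 over all arrays. The cause was not tested. Over all arrays the slope of Mmp17 on Mmp12 turned to -0.012, and at equal macrophage score those of Cd200r1 (0.072), Apobec1 (0.081), Gcat (-0.065), Mmp9 (-0.050) and Mmp13 (-0.044) turned sign. Calls of Alppl2, Cd84, Mpeg1 and Sel1l3 were lost with the first principal component removed, that of Alppl2 also after quantile normalisation, and that of Sel1l3 also with array medians subtracted. Hp was lost after quantile normalisation. No array lay within the margin set around the Cd79b limit, so that setting left the values as they were. No paired analysis was possible because all arrays form 1 group. Signal over background is not part of the values used, so no limit from dim probes can be given.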
